A study of Homo sapiens with 6 samples.

Results

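The BCL2 family genes described here are 10 of the 16623 genes measured in MDA-MB-231 cells that received PCI-24781 or its solvent. They were chosen by name and found in the tables by NCBI Gene ID, and all 10 were present. MDA-MB-231 is a human triple-negative breast cancer cell line with mesenchymal features, PCI-24781 is a pan-inhibitor of histone deacetylases, and DMSO is the solvent given to the controls. Adherent cells were kept for 24 h or 48 h in DMSO alone or with the inhibitor at 100 nM or 200 nM, and each of these 6 conditions was read as 1 RNA-seq library. Differences could therefore not be set against the spread between replicates, and no test was run. The level of a gene was given as FPKM, the number of sequenced fragments scaled by transcript length and library depth, which allows levels of different genes to be compared per length.

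Proteins of the BCL2 family control the permeability of the mitochondrial outer membrane, the step of the intrinsic apoptosis pathway that releases cytochrome c and leads to caspase activation. The anti-apoptotic members BCL2, BCL2L1 (the gene of BCL-XL) and MCL1 hold the pore-forming effectors BAX and BAK1 in check. The BH3-only members BCL2L11 (BIM), BMF, BBC3 (PUMA), PMAIP1 (NOXA) and BIK carry only the third BCL2 homology domain and bind the anti-apoptotic proteins, and BIM and PUMA can also activate the effectors. NOXA binds mainly MCL1. Most members are also controlled after transcription, through splicing, phosphorylation and protein turnover, which FPKM per gene does not show. BCL2L1 and MCL1 each have a short splice form with the opposite, pro-apoptotic activity, and a level per gene does not separate the forms.

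In the coordinates of the files, whose processing notes name the build hg19, BCL2 (NCBI Gene ID 596) lies on the minus strand of chromosome 18 from 60790579 to 60986613 and PMAIP1 (5366) on the plus strand of chromosome 18 from 57567192 to 57571538. BCL2L1 (598) lies on the minus strand of chromosome 20 from 30252255 to 30311802, and MCL1 (4170) on the minus strand of chromosome 1 from 150547027 to 150552214. BCL2L11 (10018) spans chromosome 2 from 111878491 to 111926022 on the plus strand, and BMF (90427) spans chromosome 15 from 40380091 to 40401085 on the minus strand. BBC3 (27113, minus strand, 47724079 to 47736023) and BAX (581, plus strand, 49458117 to 49465055) both lie on chromosome 19. BIK (638) is on the plus strand of chromosome 22 from 43506754 to 43525718, and BAK1 (578) is on the minus strand of chromosome 6 from 33540323 to 33548070. No other gene of the tables overlapped any of the 10.

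Histone deacetylases act on chromatin at promoters, so the 250 bases before the start site are shown for BCL2L11, BMF and PMAIP1, the BH3-only members with a window whose levels rank in the order of dose at 24 h, and for BAX, whose level varied little. These 4 genes were picked with their levels known. The sequences come from RefSeq, build GRCh38.p14, which held start sites of 8 of the 10 members, and they are written in the direction of transcription. In the first 3 sequences capitals mark the GC box, GGGCGG on either strand (CCGCCC on the other), which Sp1-type factors bind. In the BAX sequence capitals mark the E-box CACGTG, a motif bound by MYC and USF factors. The windows are chr2:111120664-111120913 (plus strand) for BCL2L11, chr15:40108880-40109129 (minus strand) for the first of 2 BMF starts, chr18:59899746-59899995 (plus strand) for PMAIP1 and chr19:48954625-48954874 (plus strand) for BAX.
BCL2L11: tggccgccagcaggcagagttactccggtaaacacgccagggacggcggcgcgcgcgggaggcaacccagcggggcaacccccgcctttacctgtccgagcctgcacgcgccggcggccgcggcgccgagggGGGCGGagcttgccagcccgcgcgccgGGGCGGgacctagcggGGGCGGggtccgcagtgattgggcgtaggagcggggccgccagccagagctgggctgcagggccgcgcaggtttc
BMF: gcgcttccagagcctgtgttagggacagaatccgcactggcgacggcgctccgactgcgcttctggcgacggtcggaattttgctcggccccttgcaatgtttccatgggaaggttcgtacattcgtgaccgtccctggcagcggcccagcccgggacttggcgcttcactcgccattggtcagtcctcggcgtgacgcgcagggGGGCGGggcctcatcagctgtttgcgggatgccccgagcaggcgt
PMAIP1: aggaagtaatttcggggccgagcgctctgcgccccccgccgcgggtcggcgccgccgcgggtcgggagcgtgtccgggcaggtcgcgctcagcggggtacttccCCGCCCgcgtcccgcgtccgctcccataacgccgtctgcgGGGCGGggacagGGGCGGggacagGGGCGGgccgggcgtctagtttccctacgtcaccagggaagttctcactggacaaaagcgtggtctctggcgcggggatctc
BAX: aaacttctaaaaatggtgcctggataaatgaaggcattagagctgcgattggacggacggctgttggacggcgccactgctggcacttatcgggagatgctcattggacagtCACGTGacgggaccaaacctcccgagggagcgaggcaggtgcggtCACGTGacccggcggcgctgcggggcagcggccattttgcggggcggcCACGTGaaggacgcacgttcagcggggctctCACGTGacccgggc

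These windows held 3 GC boxes in BCL2L11, 1 in BMF and 4 in PMAIP1, while 42.6% of the 35116 promoter windows of the same length in the RefSeq table held at least 1. Their GC content was 76.8% in BCL2L11, 65.2% in BMF and 72.8% in PMAIP1, with 34, 26 and 36 CpG dinucleotides. The median over all windows was 58.0% and 11 CpG. BCL2 (70.0%, 24 CpG) and BAX (62.8%, 25 CpG) were also above both medians, as was the second start of BCL2L1 (60.4%, 12 CpG). BAK1 (58.0%, 5 CpG) and BBC3 (49.2%, 4 CpG) were not. The first start of BCL2L1 was above the median in CpG (17) but below it in GC content. High values were therefore not particular to the 3 genes picked for their order by dose. The BAX window held the E-box 4 times, and 6.34% of all windows held it at least once. It also held 1 GC box and 2 CCAAT boxes (CCAAT or ATTGG, present in 32.0% of all windows). Of the other windows, BAK1 held 2 GC boxes and 1 CCAAT box, BBC3 held 1 CCAAT box and 1 E-box, and neither BCL2, nor either start of BCL2L1, nor the second start of BMF held any of the 3 motifs. BCL2L11 and BMF also held 1 CCAAT box each. The second BMF window was the lowest of the 10 windows in GC content, at 48.8%, and held 0 CpG dinucleotides. These matches describe letters in the windows, and binding was not measured.

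The RNA-seq tables gave no read counts, and the depth inferred from the steps between low FPKM values was between 15650000 and 17850000 fragments per library, at which 3 fragments on a transcript of 2000 bases correspond to an FPKM between 0.084 and 0.096. The 5 markers of the line (VIM, CD44, AXL, CAV1 and MSN) were all above an FPKM of 150 in every library, and ESR1 and PGR, the hormone receptors of luminal cells, were at or below 0.04. Of the other luminal markers, FOXA1 and GATA3 were at or below 1.75 and ERBB2 was between 13.16 and 21.36. The DMSO 24 h and 100 nM 48 h libraries stood apart from the rest. CDKN1A, a cell cycle inhibitor gene known to respond to histone deacetylase inhibitors, had FPKM values of 13.18, 30.61 and 48.84 after 24 h (in the order DMSO, 100 nM, 200 nM, which is kept for all values below), but of 44.25, 25.81 and 52.88 after 48 h. It was the only one of 5 listed response genes called higher at 2-fold at either dose at 24 h, and the median difference in log2(FPKM + 1) over those 5 genes at 200 nM 24 h was 0.70. Of the 521 genes called higher at 200 nM 24 h, 512 were also higher by any amount in DMSO 48 h than in DMSO 24 h, whereas at 48 h 439 of them were below their DMSO level with 100 nM. The first of these counts shares its reference library with the call. With 200 nM at 48 h, 496 of the 521 genes were above their DMSO level of that time, with a median difference of 0.37 in log2(FPKM + 1). Time in culture, a difference between cultures and exchanged samples cannot be told apart here. Among the comparisons, 200 nM 48 h with DMSO 48 h and 200 nM 24 h with 100 nM 24 h use neither DMSO 24 h nor 100 nM 48 h. They are therefore given beside the others. The former uses DMSO 48 h, in which CDKN1A was 44.25 against 13.18 in DMSO 24 h. If DMSO 48 h was among exchanged samples, comparisons with it would be affected too, including its use as another reference below. Where fragment numbers are printed below, they are approximate, and their intervals cover counting error only.

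Over the 6 libraries, the level per length of the 10 genes covered a wide range in an order that was mostly kept. BCL2L1 was the highest of the 10 in every library, with an FPKM between 213.72 and 294.71, and made up between 46.4% and 57.1% of their summed FPKM. This sum leaves out further family genes, among them BNIP3 (132.81 to 267.86), BNIP3L (49.98 to 88.12) and BAD (37.67 to 46.93). BAX (73.03 to 88.72) and MCL1 (58.90 to 88.12) followed, and their ranges overlapped. PMAIP1 (37.21 to 55.46) and BAK1 (15.26 to 18.23) came next, without overlap with their neighbours. The ranges of BCL2L11 (4.16 to 7.70), BBC3 (1.76 to 7.68) and BCL2 (2.35 to 4.23) overlapped. BMF (0.23 to 2.25) and BIK (0.00 to 0.42) were the lowest. Most of the summed level of the 10 genes was therefore in BCL2L1, MCL1, BAX and PMAIP1, while 4 of the 5 BH3-only members had low levels.

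**Figure D1:**
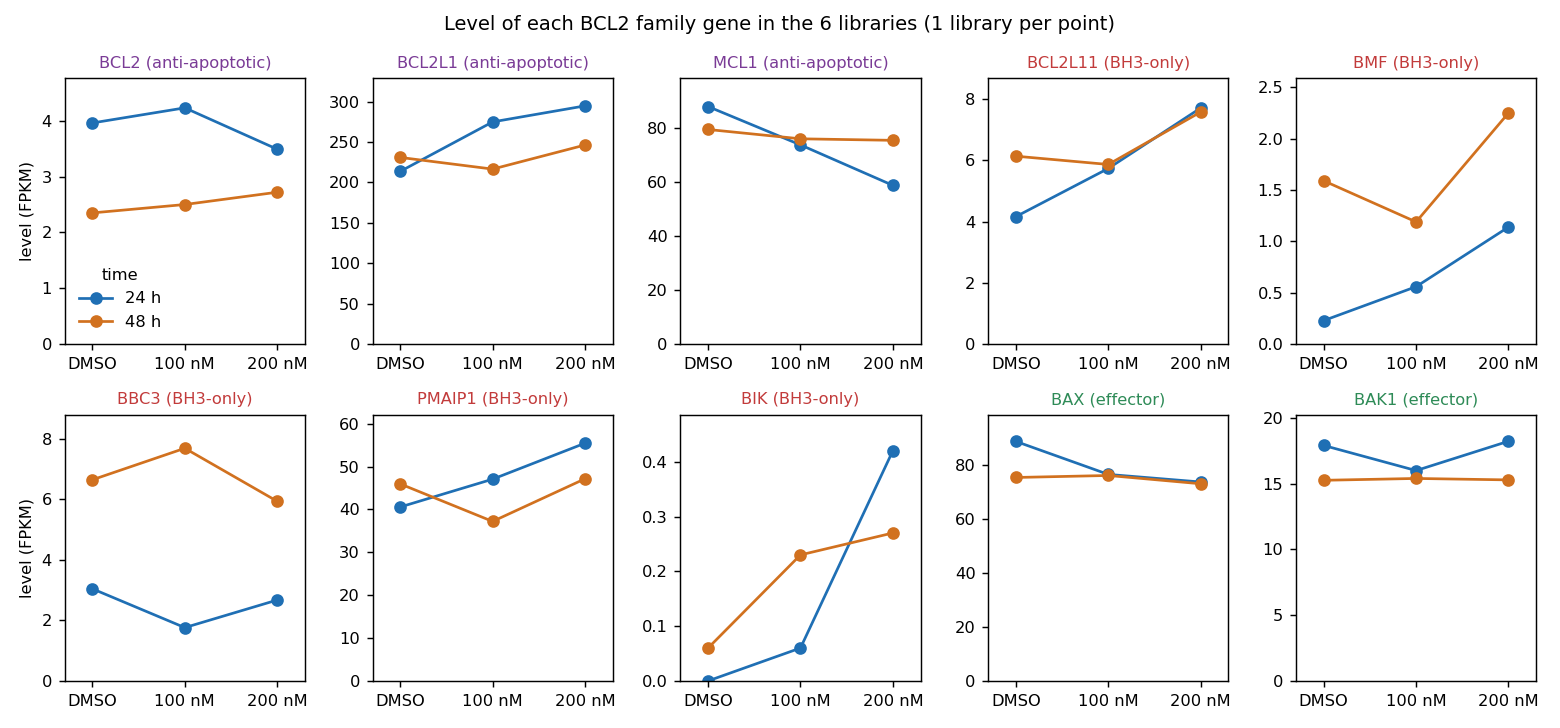
FPKM (vertical axis, from 0, with its own scale in each panel) of the 10 genes in DMSO, 100 nM and 200 nM, with 24 h in blue and 48 h in orange and 1 library per point. At 24 h the levels of BCL2L1, BCL2L11, BMF, PMAIP1 and BIK rank in the order of dose and those of MCL1 and BAX in the reverse order, while at 48 h the 100 nM point lies below DMSO for BCL2L1, BCL2L11, BMF, PMAIP1 and MCL1 and above it for BIK (0.23 against 0.06) and BAX (76.10 against 75.36).

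Among the anti-apoptotic genes, BCL2L1 and MCL1 ranked in opposite orders by dose at 24 h. The FPKM values of BCL2L1 were 213.72, 274.88 and 294.71 after 24 h and 230.96, 216.54 and 246.30 after 48 h. MCL1 had 88.12, 73.90 and 58.90 after 24 h, and 79.61, 76.16 and 75.59 after 48 h. Both treated libraries were above DMSO for BCL2L1 and below it for MCL1 at 24 h, and the 48 h values lay between the 24 h extremes for both genes. On the log2(FPKM + 1) scale BCL2L1 differed from DMSO of the same time by 0.36 (100 nM) and 0.46 (200 nM) at 24 h and by -0.09 (100 nM) and 0.09 (200 nM) at 48 h. For MCL1 the differences were -0.25 (100 nM) and -0.57 (200 nM) at 24 h, with -0.06 (100 nM) and -0.07 (200 nM) at 48 h. In the pair of 24 h treated libraries, which leaves out DMSO 24 h, 200 nM minus 100 nM was 0.10 for BCL2L1 and -0.32 for MCL1. With DMSO 48 h as the reference, chosen after the values were seen, 200 nM 24 h differed by 0.35 for BCL2L1 and by -0.43 for MCL1. Neither gene reached a 1.5-fold difference, 0.585 on this scale, in any comparison with DMSO of its time. In bulk RNA, a different level in all cells and a different share of cells with a given level cannot be told apart.

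BCL2 itself was a minor transcript. Its FPKM values were 3.96, 4.23 and 3.49 after 24 h and 2.35, 2.50 and 2.72 after 48 h. All 3 libraries of 24 h lay above all 3 of 48 h, whatever the dose. The differences from DMSO were 0.08 (100 nM) and -0.14 (200 nM) at 24 h and 0.06 (100 nM) and 0.15 (200 nM) at 48 h on the log2(FPKM + 1) scale, while DMSO 48 h minus DMSO 24 h was -0.57. At 24 h, 200 nM minus 100 nM was -0.22.

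The effectors varied least of the 10 genes. The FPKM of BAX was 88.72, 76.50 and 73.69 after 24 h and 75.36, 76.10 and 73.03 after 48 h. Its DMSO 24 h value was the highest, and the other 5 libraries lay within 73.03 to 76.50. BAK1 had 17.91, 16.00 and 18.23 after 24 h and 15.26, 15.40 and 15.29 after 48 h, so its 3 libraries of 48 h were almost equal. On the log2(FPKM + 1) scale, 200 nM minus 100 nM at 24 h was -0.05 for BAX and 0.18 for BAK1, and 200 nM minus DMSO at 48 h was -0.04 for BAX and 0.00 for BAK1. Between the highest and the lowest of the 6 libraries, log2(FPKM + 1) differed by 0.28 for BAX and 0.24 for BAK1, and by 1.65 for BBC3, the widest of the 10. BAK1 has 1 listed transcript of 2136 bases. Its lowest level, 15.26 in DMSO 48 h, corresponds to 567 fragments, with a 95% Poisson interval of 521 to 616. Its highest, 18.23 at 200 nM 24 h, corresponds to 672 fragments (622 to 725). These fragment numbers are not adjusted for library depth.

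BCL2L11 encodes BIM, which binds all the main anti-apoptotic proteins. Its FPKM values were 4.16, 5.73 and 7.70 after 24 h and 6.13, 5.86 and 7.57 after 48 h. The 200 nM library was the highest at each time, and DMSO 24 h was the lowest of all 6. The differences from DMSO in log2(FPKM + 1) were 0.38 (100 nM) and 0.75 (200 nM) at 24 h and -0.06 (100 nM) and 0.27 (200 nM) at 48 h. At 24 h, 200 nM minus 100 nM was 0.37. In FPKM without the added 1, 200 nM was 1.85 times DMSO at 24 h and 1.24 times DMSO at 48 h. The 18 listed transcripts of BCL2L11 are between 243 and 5231 bases long, so the fragments behind these ratios are uncertain. At 24 h, 4.16 corresponds to between 18 and 388 fragments and 7.70 to between 32 and 695. With DMSO 48 h as the reference the difference at 200 nM 24 h was 0.29.

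BMF, which in its protein form is held at the cytoskeleton and released under stress, had the lowest levels after BIK. Its FPKM values were 0.23, 0.56 and 1.14 after 24 h and 1.59, 1.19 and 2.25 after 48 h. The 3 libraries of 48 h lay above the 3 of 24 h, and within each time 200 nM was the highest. The differences from DMSO in log2(FPKM + 1) were 0.34 (100 nM) and 0.80 (200 nM) at 24 h and -0.24 (100 nM) and 0.33 (200 nM) at 48 h, and DMSO 48 h minus DMSO 24 h was 1.07. Between the treated libraries of 24 h, 200 nM minus 100 nM was 0.46. In FPKM without the added 1, 200 nM 24 h was 4.96 times and DMSO 48 h was 6.91 times DMSO 24 h. These ratios rest on few fragments. The 4 listed transcripts of BMF are between 492 and 4687 bases long, so 0.23 corresponds to between 2 and 19 fragments and 1.14 to between 10 and 92. With DMSO 48 h as the reference the difference at 200 nM 24 h was -0.27, opposite in sign to that with DMSO 24 h. PECAM1, an endothelial marker, followed nearly the same order over the libraries, with an FPKM of 0.38, 0.64 and 1.25 after 24 h and 1.52, 1.07 and 2.33 after 48 h, and PTPRC, a leukocyte marker, stayed between 0.76 and 1.01. Both of these 2 markers were above 0 in every library, with a sum between 1.19 and 2.26 at 24 h and between 1.84 and 3.33 at 48 h. Their part in the BMF values was not tested. KLF9 and B3GNT3, listed below as most like BMF, ranked the libraries in the same order as BMF. Such an order was therefore not particular to PECAM1.

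BBC3 encodes PUMA, a target of p53 and of FOXO factors. Its FPKM values were 3.04, 1.76 and 2.67 after 24 h and 6.64, 7.68 and 5.93 after 48 h. The times did not overlap, and the 100 nM library was the lowest of its time at 24 h and the highest at 48 h. The differences from DMSO in log2(FPKM + 1) were -0.55 (100 nM) and -0.14 (200 nM) at 24 h and 0.18 (100 nM) and -0.14 (200 nM) at 48 h, and DMSO 48 h minus DMSO 24 h was 0.92. At 24 h, 200 nM minus 100 nM was 0.41, opposite in sign to the difference of 200 nM from DMSO. BBC3 and BMF were thus both higher at 48 h than at 24 h in every condition, but BBC3 was below DMSO at 200 nM at both times and BMF was above it.

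PMAIP1 was the highest of the 5 BH3-only members. Its FPKM values were 40.58, 47.07 and 55.46 after 24 h and 45.96, 37.21 and 47.16 after 48 h. Levels ranked by dose at 24 h, while at 48 h the 100 nM library was the lowest of all 6 and 200 nM was close to DMSO. The differences from DMSO in log2(FPKM + 1) were 0.21 (100 nM) and 0.44 (200 nM) at 24 h and -0.30 (100 nM) and 0.04 (200 nM) at 48 h. Without DMSO 24 h, in the treated pair of that time, 200 nM minus 100 nM was 0.23. On its single listed transcript of 1948 bases, DMSO 24 h corresponds to 1411 fragments (95% Poisson interval 1338 to 1487) and 200 nM 24 h to 1864 fragments (1780 to 1951), and these intervals do not overlap.

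BIK, an endoplasmic reticulum BH3-only gene, was at the limit of detection. It was listed at 0 in DMSO 24 h, with 0.06 at 100 nM and 0.42 at 200 nM at 24 h, and with 0.06, 0.23 and 0.27 after 48 h. On 953 bases this corresponds to 0, 1 and 7 fragments at 24 h and to 1, 4 and 4 at 48 h. The 95% Poisson interval was 0 to 3.69 for 0 fragments and 2.81 to 14.42 for 7, and these intervals overlap. No fold is given for BIK, and it did not pass the minimum FPKM of 1 in any comparison.

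A gene was called at a difference of 2-fold or more in FPKM + 1 if 1 of the compared libraries, or both, reached a minimum FPKM of 1. Of the 10 members, 9 passed this minimum in each comparison, all but BIK, except that BMF did not pass it at 100 nM 24 h, which left 8. None was called at 2-fold in any of the 4 comparisons, in which few of the tested genes were. At 24 h, 1.35% were called higher and 0.131% lower for 100 nM, and 4.47% higher and 1.48% lower for 200 nM. At 48 h, the shares were 0.0608% higher and 0.408% lower for 100 nM and 0.206% higher and 0.0600% lower for 200 nM. At 1.5-fold, BCL2L11 and BMF were called higher at 200 nM 24 h and 0 members were called lower, where 12.5% of the tested genes were higher and 7.58% were lower. At 1.5-fold 0 members were called at 100 nM 24 h (background 5.54% higher and 1.25% lower), at 100 nM 48 h (0.504% and 1.75%) or at 200 nM 48 h (1.53% and 0.463%). Between the DMSO libraries, BMF was higher at 48 h by at least 2-fold, as were 2.49% of the tested genes, and BMF and BBC3 were higher by at least 1.5-fold, as were 8.49%. The time difference between the controls was therefore larger for BMF and BBC3 than any difference from DMSO of the same time. With DMSO 48 h as the reference, BBC3 was lower by at least 2-fold at both doses of 24 h, with -1.47 (100 nM, background 0.511%) and -1.06 (200 nM, 1.23%). At 1.5-fold and 100 nM, BCL2 was also higher (0.64, background 0.900%) and BMF lower (-0.73, background 2.77%), while at 200 nM 0 members were higher (background 4.47%) and BBC3 alone was lower (5.24%).

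**Figure D2:**
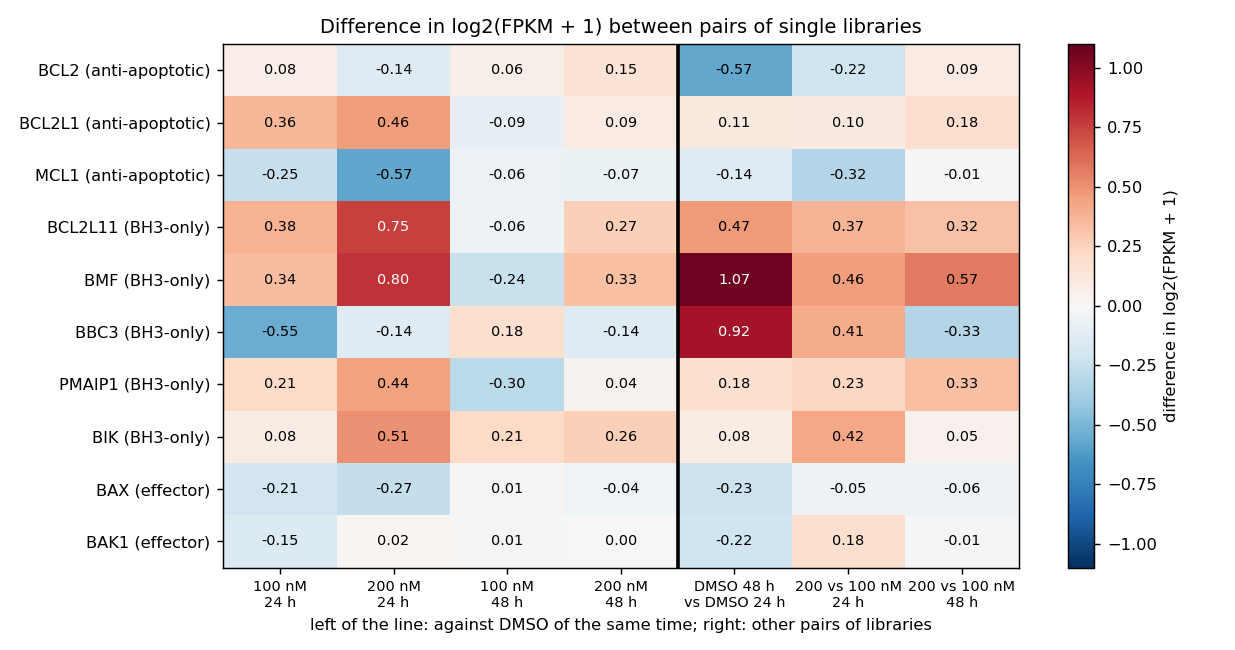
Difference in log2(FPKM + 1) of each gene (rows, grouped by role) in the 4 comparisons with DMSO of the same time (left of the line) and in 3 other pairs of libraries (right of the line), with red for higher and blue for lower in the library named first. At 200 nM 24 h the values run from -0.57 for MCL1 to 0.80 for BMF, and the largest value of all is 1.07 for BMF between the DMSO libraries.

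The BH3-only members were also counted at any size of difference, without BIK, whose fragments are too few, and with BMF below the minimum FPKM. At 24 h, 3 of these 4 genes were higher at 100 nM and 3 of 4 at 200 nM, with BBC3 the exception at both doses, while 51.6% and 51.2% of the tested genes were higher. At 48 h, 1 of 4 was higher at 100 nM and 3 of 4 at 200 nM, again without BBC3, against 47.2% and 51.0% of the tested genes. Between the doses, 4 of 4 were higher at 200 nM than at 100 nM at 24 h, by 0.23 to 0.46, and 3 of 4 at 48 h, against 49.1% and 52.0% of the tested genes. From DMSO 24 h to DMSO 48 h, 4 of 4 were higher, by 0.18 to 1.07, against 49.6%. BID, BAD and HRK are also BH3-only genes but are not among the 10. With these and BIK counted, 5 of 8 BH3-only genes were higher at each dose at 24 h, and 3 of 8 (100 nM) and 4 of 8 (200 nM) at 48 h. These comparisons share libraries, so their counts are not independent of each other.

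The pro-apoptotic and anti-apoptotic groups were compared by their medians of log2(FPKM + 1) differences. At 200 nM 24 h the median was 0.44 over the 7 pro-apoptotic genes and -0.14 over the 3 anti-apoptotic genes, against 0.01 over all tested genes. Within the pro-apoptotic group, the median was 0.60 over the BH3-only members without BIK and -0.12 over the effectors. At 100 nM 24 h both groups had a median of 0.08, but the pro-apoptotic one was -0.15 over members past the minimum FPKM, 0.21 with a smaller pseudocount and 0.19 in TPM. At 48 h the medians were 0.01 and -0.06 at 100 nM, and 0.04 and 0.09 at 200 nM. The order of the groups at 200 nM 48 h was thus the reverse of that at 24 h, with a small gap. At 200 nM 48 h the median was 0.15 over the BH3-only members without BIK and -0.02 over the effectors. At 100 nM 48 h these medians were -0.15 and 0.01. BMF and BIK had few fragments and weigh on these medians: over the members that reached an FPKM of 1 in each of the compared libraries, the pro-apoptotic median at 200 nM 24 h was 0.02. With DMSO 48 h as the reference the medians at 200 nM 24 h were 0.24 over the pro-apoptotic and 0.35 over the anti-apoptotic genes, so the order of the groups depended on which DMSO library was used.

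A ratio within a library does not depend on how the library was scaled. The summed FPKM of the pro-apoptotic genes over that of the anti-apoptotic genes was 0.506, 0.418 and 0.446 after 24 h and 0.483, 0.487 and 0.467 after 48 h. It was lower than DMSO in both treated libraries of 24 h, and the log2 difference in this ratio was -0.27 and -0.18. BCL2L1, MCL1, BAX and PMAIP1 held between 92.5% and 94.3% of the summed FPKM of the 10 genes. With the 5 BH3-only members alone in the numerator the ratio was 0.157, 0.156 and 0.189 after 24 h and 0.193, 0.177 and 0.195 after 48 h, highest at 200 nM within each time. With BID, BAD and HRK added to that numerator, an alternative chosen after the values were seen, it was 0.330, 0.293 and 0.329 after 24 h and 0.379, 0.376 and 0.359 after 48 h, lowest at 200 nM at 48 h. The direction of a summed ratio at 200 nM thus depended on which genes were counted.

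BCL2L11 over MCL1, the gene of a main binding partner of BIM, was 0.0472, 0.0775 and 0.131 after 24 h and 0.0770, 0.0769 and 0.1002 after 48 h. The ratio at 200 nM was 2.77 times DMSO at 24 h and 1.30 times at 48 h. PMAIP1 over MCL1, a pair chosen after the values were seen, was 0.461, 0.637 and 0.942 after 24 h and 0.577, 0.489 and 0.624 after 48 h. BCL2L1 over MCL1, chosen in the same way, was 2.43, 3.72 and 5.00 after 24 h and 2.90, 2.84 and 3.26 after 48 h, so the balance among the anti-apoptotic transcripts differed most between DMSO 24 h and 200 nM 24 h. For all 3 of these pairs 200 nM was the highest library within each time. BAX over BCL2 was 22.4, 18.1 and 21.1 after 24 h and 32.1, 30.4 and 26.8 after 48 h, lower at both doses than in DMSO of the same time. BMF over BCL2L1 was 0.00108, 0.00204 and 0.00387 after 24 h and 0.00688, 0.00550 and 0.00914 after 48 h.

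**Figure D3:**
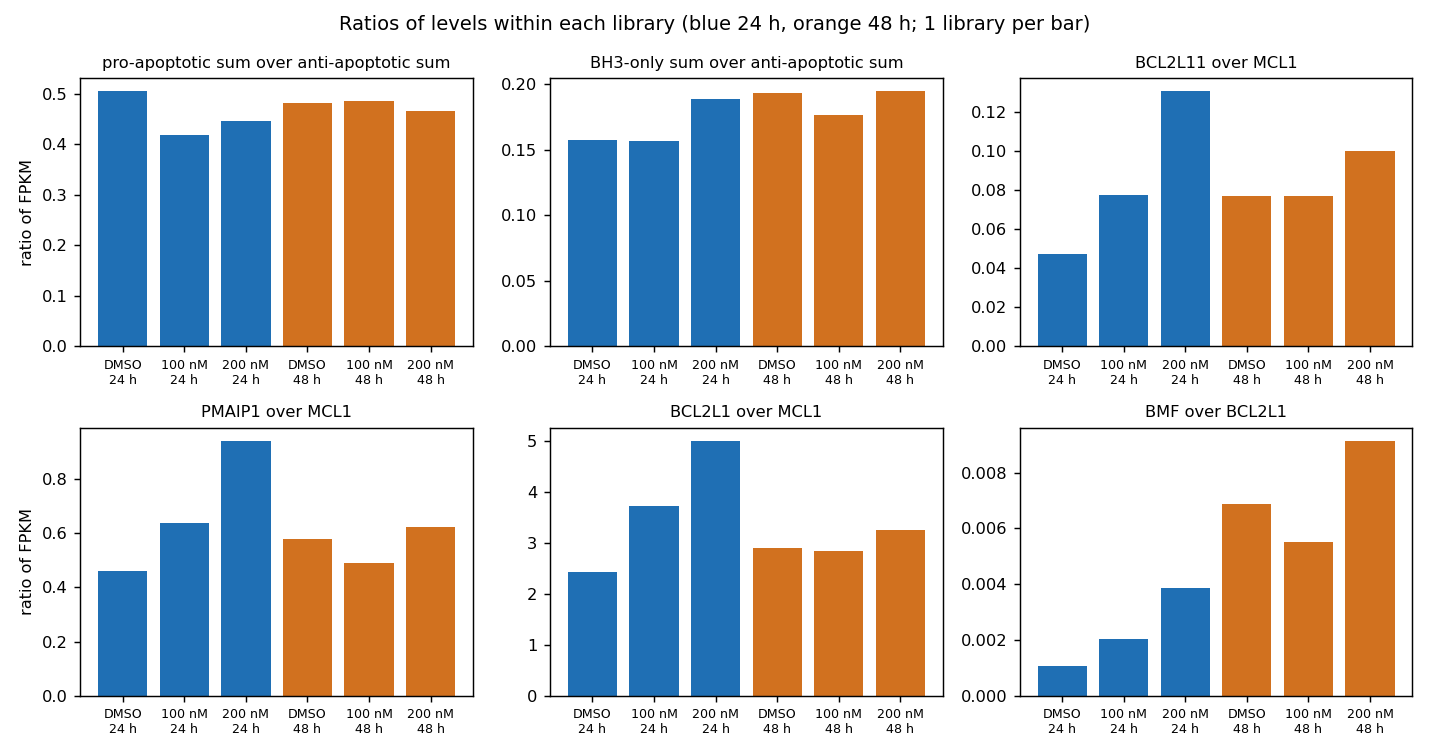
Ratios of FPKM (vertical axis, from 0) within each of the 6 libraries for sums of pro-apoptotic or BH3-only over anti-apoptotic genes and for 4 pairs of genes, with 24 h in blue and 48 h in orange. The summed pro-apoptotic ratio stays between 0.418 and 0.506, while BCL2L11 over MCL1 runs from 0.0472 in DMSO 24 h to 0.131 at 200 nM 24 h.

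Over the 6 libraries, members of the family followed each other in different ways. As a description over 6 libraries of log2(FPKM + 1), which share treatments and times, Pearson's r was -0.96 between BCL2 and BBC3, -0.93 between BCL2L11 and BAX, 0.90 between BCL2L1 and PMAIP1 and -0.85 between BCL2L1 and MCL1. These pairs were picked as the largest r in size among all pairs of the 10 members. For the 3 members with the widest range, the genes with the highest r among 11417 with a mean FPKM of at least 1 were also listed. These genes were picked as the most alike of all, so their r is a description and not a test. BBC3 was most like FAM161B (0.997), BRI3 (0.994) and JUND (0.992), the last with 35.81, 29.29 and 32.56 after 24 h and 63.86, 71.99 and 56.20 after 48 h. BMF was most like SLC17A5 (0.995), KLF9 (0.993) and B3GNT3 (0.992), and KLF9 had 0.37, 0.96 and 1.70 after 24 h and 2.41, 1.75 and 2.98 after 48 h. BCL2L11 was most like SLC29A4 (0.998), PPM1H (0.997) and TMEM63B (0.996), and SLC29A4 had 1.72, 4.80 and 10.10 after 24 h and 5.93, 5.30 and 10.41 after 48 h.

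Other genes of the pathway were taken from 5 lists. The first held further BCL2 family genes and BCLAF1. The others held caspases with the apoptosome and its inhibitors, VDAC channels, upstream regulators, and the ubiquitin enzymes that act on MCL1. Of the 46 listed genes reported here, 45 were found. At 200 nM 24 h, 2 of these were higher and 0 were lower by 2-fold, against 4.47% and 1.48% of the tested genes, and the other 3 comparisons had 0 calls. The 1.5-fold threshold gave 2 higher and 6 lower genes at 200 nM 24 h (background 12.5% and 7.58%), 2 higher genes and 1 lower gene at 100 nM 24 h (5.54% and 1.25%), and 0 at 48 h. The median difference over these genes was -0.02 (100 nM) and -0.10 (200 nM) at 24 h and -0.01 (100 nM) and -0.07 (200 nM) at 48 h.

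Of the 13 genes found from the first list, BID and BCLAF1 were lower by 1.5-fold at 200 nM 24 h. BID, a BH3-only gene whose protein links death receptors to mitochondria, had an FPKM of 13.44, 10.40 and 6.80 after 24 h and 11.11, 14.68 and 9.22 after 48 h. It was lowest at 200 nM within each time, opposite to BCL2L11. BCLAF1 is named for an interaction with BCL2 and is not itself a family member. It had 35.01, 30.17 and 21.65 after 24 h and 28.14, 24.63 and 23.81 after 48 h, and both treated libraries were below DMSO at each time.

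Of the 16 genes of the caspase list reported here, 2 were lower by 1.5-fold at 200 nM 24 h. CASP6, an executioner caspase, had FPKM values of 14.66, 11.56 and 8.05 after 24 h and 10.42, 12.03 and 8.15 after 48 h. BIRC2, which encodes cIAP1, had 92.58, 74.63 and 46.74 after 24 h and 54.92, 50.39 and 49.77 after 48 h and was highest in DMSO 24 h. BIRC3, which encodes cIAP2, was called higher by 1.5-fold at 100 nM 24 h, with 15.66, 25.61 and 22.69 after 24 h and 21.92, 14.91 and 20.09 after 48 h. ENDOG, the gene of a mitochondrial endonuclease, was called lower at 100 nM 24 h, with 6.78, 3.86 and 4.50 after 24 h and 5.59, 6.07 and 3.40 after 48 h. None of the 3 VDAC genes and none of the 4 MCL1 turnover genes reached 1.5-fold in any of the 4 comparisons.

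Among the 9 upstream regulators, FOXO1 and MYC were the pair called higher at 2-fold at 200 nM 24 h. FOXO1 encodes a protein that activates BCL2L11 and BBC3 in several cell types. Its FPKM was 2.46, 4.25 and 6.84 after 24 h and 4.24, 4.63 and 6.10 after 48 h. FOXO1 was highest at 200 nM within each time, as were BCL2L11 and MYC, whereas BBC3 was below DMSO at 200 nM at both times. A link between FOXO1 and these genes was not tested. Being highest at 200 nM was common among the 521 genes called higher at 200 nM 24 h. Of these, 508 were higher at 200 nM than at 100 nM at 24 h. With 200 nM at 48 h, 496 were above DMSO and 492 above 100 nM. MYC had 48.70, 65.29 and 111.93 after 24 h and 73.36, 51.73 and 88.88 after 48 h. TP73, a p53 family gene, was lower by 1.5-fold at 200 nM 24 h, with 1.82, 1.37 and 0.77 after 24 h and 1.46, 1.54 and 1.17 after 48 h. DDIT3, the stress factor CHOP, was also lower there, with 10.61, 7.24 and 6.44 after 24 h and 15.01, 17.79 and 12.89 after 48 h, and like BBC3 it was higher in all 3 libraries of 48 h than in those of 24 h.

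**Figure D4:**
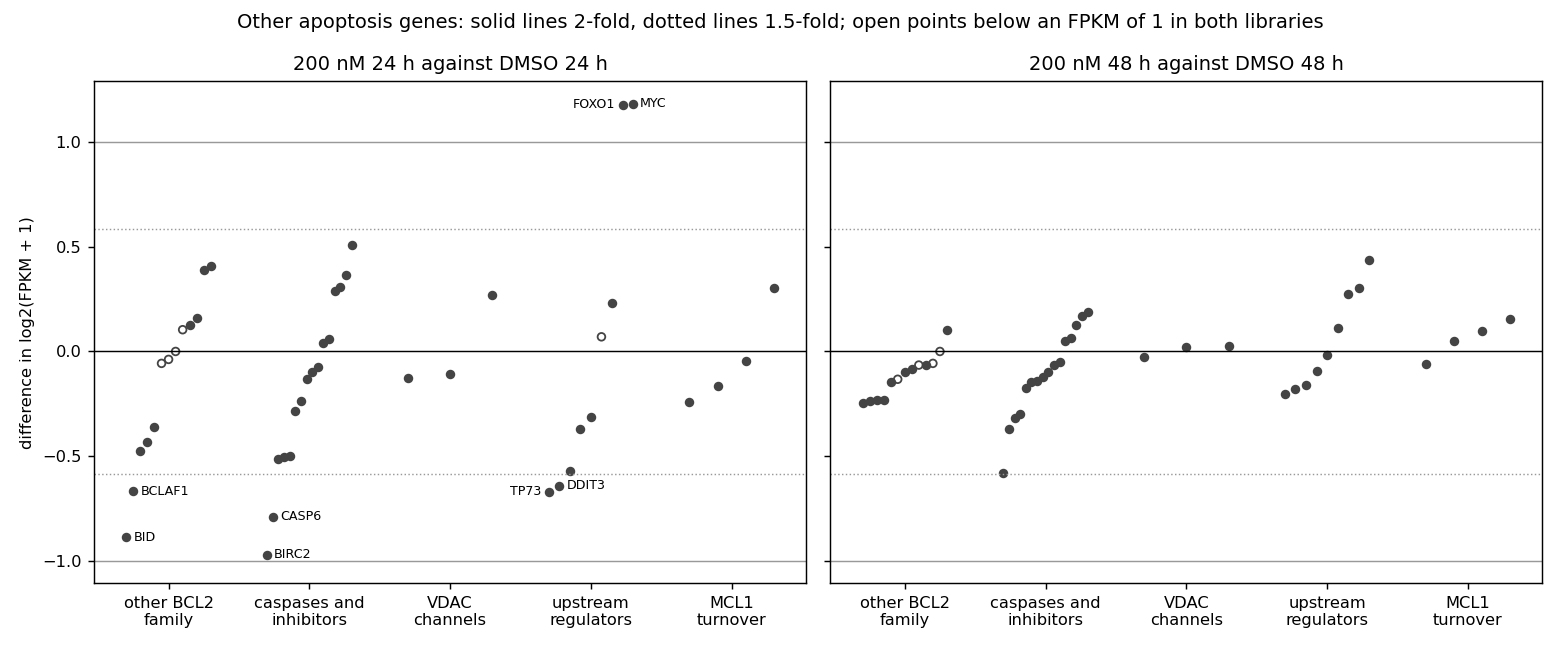
Difference in log2(FPKM + 1) from DMSO of the same time (vertical axis) for the genes of the 5 pathway lists (horizontal axis) at 200 nM, with 24 h on the left and 48 h on the right and 1 point per gene. Genes past 1.5-fold are named. At 24 h, 2 genes lie above and 6 lie below the 1.5-fold lines, and at 48 h 0 genes lie past them.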

How the data were processed

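Total RNA from MDA-MB-231 cells was sequenced by a company after library construction with mRNA enrichment or rRNA depletion. The authors deposited 1 table per library with FPKM for the same 16623 genes, rounded to 2 decimals. The submitters' processing notes name Bowtie2, RSEM and the build hg19, with no version, role or strand setting. Symbols came from the RefSeq table of GRCh38.p14, which held 16585 of the gene IDs.

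Differences were taken in log2(FPKM + 1) between single libraries, and a gene was called at 2-fold or more if at least 1 of the compared libraries reached an FPKM of 1. A 1.5-fold threshold was also used. With 1 library per condition there was no test and no p-value. The named genes were the 10 members, genes of the pathway lists past 1.5-fold in any of the 4 comparisons, and for each of the 3 members with the widest range the 3 genes most correlated with it. The members and lists were chosen with earlier results of these data known. From the pathway lists, 1 gene is not reported here. Depth was inferred from the FPKM steps of between 237 and 286 genes per library with transcripts of 400 to 1500 bases, using GENCODE transcript lengths, and fragment numbers follow from it. The calling rule was checked on simulated data only, so this check does not measure how far real libraries of the same condition would differ. Python 3.11.15, numpy 2.4.6, pandas 2.3.3, scipy 1.17.1 and matplotlib 3.10.9 were used.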

Additional observations from a re-analysis of the deposited data

Results flagged for a closer look

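At 100 nM, 3 members differed from DMSO of the same time in opposite directions at 24 h and 48 h, by at least 0.5 in all on the log2(FPKM + 1) scale. BMF was above DMSO at 24 h (0.34) and below it at 48 h (-0.24), a difference between the times of 0.58. PMAIP1 was likewise above DMSO at 24 h (0.21) and below it at 48 h (-0.30), a difference of 0.51. BBC3 went the other way, below DMSO at 24 h (-0.55) and above it at 48 h (0.18), a difference of -0.73. Each value rests on 1 library per condition, and the difference between the times was not tested. Both libraries that stand apart, DMSO 24 h and 100 nM 48 h, enter these values, 1 at each time. At 200 nM, BMF and PMAIP1 were above DMSO and BBC3 was below DMSO at both times.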

How the results depend on the processing

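Alternatives were pseudocounts of 0.1 and 0.01, TPM, median-of-ratios factors, no filter, a minimum FPKM of 1 in either library or in both for the medians, a 1.5-fold threshold and other sums for the ratio. All 40 differences of the 10 members from DMSO kept their sign under both pseudocounts, TPM and median-of-ratios factors, and the last moved none of them by more than 0.017. The number of members higher at 200 nM 24 h was 0 at 2-fold, 1 with a pseudocount of 0.1 or 0.01, 2 in TPM and 2 at 1.5-fold. The pro-apoptotic median at 100 nM 24 h was 0.08, and 0.21 with either smaller pseudocount, 0.19 in TPM and -0.15 over members past the minimum in either library or in both. At 200 nM 24 h it was 0.44, and 0.23 over members past the minimum in either library and 0.024 over those past it in both. The median over the list of further BCL2 family genes and BCLAF1 was -0.04 at 200 nM 24 h, and -0.36 under either minimum. At 200 nM 48 h it was -0.10, and -0.24 with either smaller pseudocount. Of the pathway genes, 0 were lower at 200 nM 24 h, 1 with either smaller pseudocount and 6 at 1.5-fold, and at 100 nM 24 h 2 were higher and 1 was lower at 1.5-fold. The log2 difference in the pro-apoptotic to anti-apoptotic ratio was -0.27, -0.18 and 0.01 at 100 nM 24 h, 200 nM 24 h and 100 nM 48 h, and with BH3-only members alone -0.006, 0.27 and -0.13. With BID, BAD and HRK counted too, chosen after seeing the data, it was -0.17 at 100 nM 24 h and -0.006 at 200 nM 24 h. Without BAX and MCL1 it was -0.077 at 200 nM 24 h. With DMSO 48 h as the reference of the 24 h libraries, chosen after seeing the data, the anti-apoptotic median was 0.25 at 100 nM and 0.35 at 200 nM, the pro-apoptotic median at 200 nM was 0.24, and the number of members lower at 2-fold was 1 at each dose. The fewer members left explain the shifts under a minimum FPKM, and the causes of the others were not tested. No paired analysis was possible because the libraries compared share at most 1 replicate number, and a fit of dose and time as additive terms over the 6 libraries was not run. No library could be left out within a condition. Values below about 0.1 FPKM rest on 3 or fewer fragments of a transcript of 2000 bases.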
